A study of Mus musculus with 12 samples.

Results

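Vascular endothelial growth factors (VEGFs) and their receptors were examined as 9 genes, found by gene name among the 55862 genes of the deposited expression table. The 4 ligand genes were Vegfa, Vegfb, Vegfc and Pgf, the 3 tyrosine kinase receptor genes were Flt1, Kdr and Flt4, and the 2 neuropilin genes were Nrp1 and Nrp2. RNA had been sequenced from mouse brain cells in 4 groups of 3 samples, labelled C57BL/6 throughout, although the methods give C57BL/6J for the mice behind both NPC groups. ASTs were astrocytes from the cerebral cortex of pups at postnatal day 1 to 2, grown as a monolayer in serum and taken at day 0 of incubation, and A-iSCs were the same kind of cells cultured as spheres on agarose for 5 days. The P56-NPC group was a suspension dissociated from the subependymal zone of adult mice at postnatal day 56, and the P0-NPC group a suspension dissociated from the hippocampus at postnatal day 0. Neither suspension was sorted for a cell type in the methods given, and the sources name no transgene in any group.

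VEGF-A is the main growth signal for blood vessels and also acts on neural stem cells, neurons and glia. It binds VEGFR1, the product of Flt1, which takes up the ligand and signals weakly, and VEGFR2, the product of Kdr (also called FLK-1), which carries most of the signal to PI3K, Akt, PLC-gamma and the MAP kinases. VEGF-B and placental growth factor (Pgf) bind VEGFR1, while VEGF-C binds VEGFR3, the product of Flt4, which is best known from lymphatic vessels. Neuropilins are co-receptors without a kinase of their own that also bind class 3 semaphorins together with plexins.

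Values were in FPKM, a measure that corrects fragments for the length of the gene and the size of the library, which allows levels of different genes to be set side by side. Fragments could be recovered as whole numbers for each gene and amounted to 17077780 to 24452419 per sample. For a gene as long as 1 kilobase, the limit of 3 fragments lay at 0.103 to 0.187 FPKM depending on the sample, with only the counting error considered. The share of fragments on mitochondrial genes was 16.5 to 17.6% in P56-NPCs and 2.94 to 7.03% in the other groups. The labels were checked against marker genes. Summed astrocyte markers (10 genes) reached 193 to 213 FPKM in ASTs, 1415 to 2766 in A-iSCs, 5020 to 5427 in P56-NPCs and 354 to 422 in P0-NPCs, whereas oligodendrocyte markers (8 genes) reached 11540 to 13200 FPKM in P56-NPCs and neuron markers (10 genes) 929 to 1127 FPKM in P0-NPCs. Neural stem or progenitor markers (9 genes) went against the NPC labels, since they summed to 2618 to 3590 FPKM in ASTs, 1568 to 2100 in A-iSCs, 885 to 967 in P0-NPCs and 232 to 259 in P56-NPCs. In such bulk RNA, fewer cells of a type and less RNA per cell cannot be told apart. The methods speak in general of independent experiments but do not tie the sequenced samples of a group to separate cultures or animals, so the p-values measure the spread between these samples, which may be technical.

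Groups were compared 2 at a time with limma on log2(FPKM + 1), and a difference was called where p, adjusted over all tested genes by the method of Benjamini and Hochberg, was under 0.05. Between A-iSCs and ASTs, 1 of the 9 genes (Vegfa) was called higher and 4 (Vegfc, Pgf, Kdr and Flt4) lower, where 54.8% of all genes tested were called. Relative to ASTs, 2 genes were higher and 6 lower in P56-NPCs among 8 tested (78.9% of all genes called), and 4 were higher and 2 lower in P0-NPCs among 9 tested (79% of all genes called). A-iSCs had 4 genes higher and 2 lower than P56-NPCs among 7 tested (61% of all genes called), and 2 higher and 4 lower than P0-NPCs among 8 tested (65.1% of all genes called). P56-NPCs had 3 genes higher and 5 lower than P0-NPCs among 8 tested (78.8% of all genes called). Genes that reached a mean of 1 FPKM in neither group were not tested, and passing that filter in 1 group alone favours a difference. Since most tested genes were called in each comparison, the number of VEGF genes called is no result about them, and what follows is which genes moved, where and by how much.

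**Figure D1:**
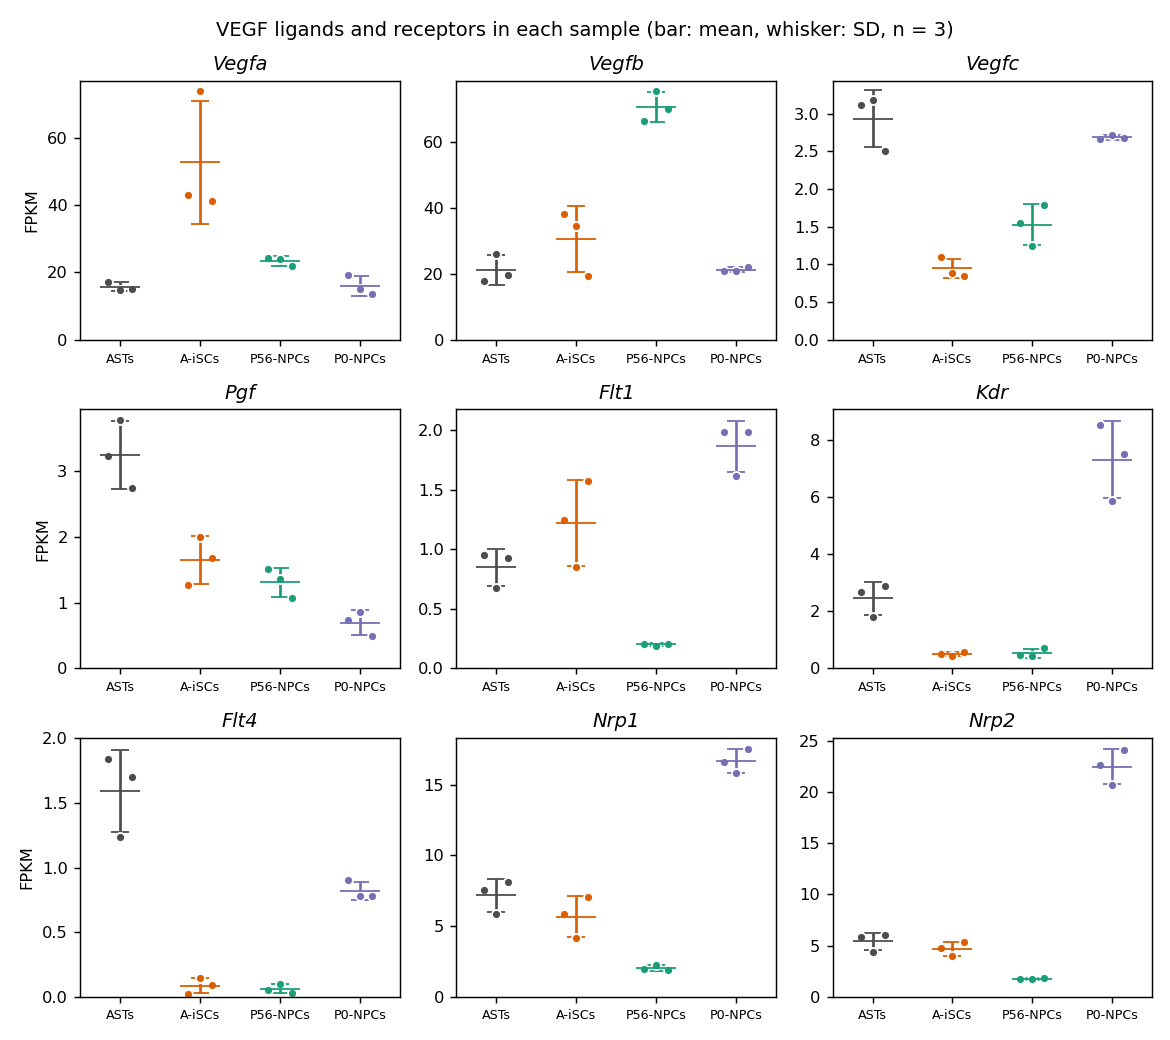
Level of each of the 9 genes in FPKM (vertical axes, starting at 0 and scaled per gene) in the 3 samples of each group (points), with the mean (wide bar) and SD (whisker). Vegfa was highest in the A-iSC samples (41.2 to 73.7 FPKM), Vegfb in the P56-NPC samples (66.5 to 75.7), Pgf and Flt4 in the AST samples, and Kdr, Nrp1 and Nrp2 in the P0-NPC samples.

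Vegfa (chromosome 17 from 46016993 to 46032369, minus strand, GRCm38) was the ligand that rose in spheres. It was measured at 17.2, 14.7 and 15.2 FPKM in the AST samples and at 42.9, 73.7 and 41.2 FPKM in the A-iSC samples. Each A-iSC sample lay above each AST sample, and replicate 2 of the A-iSCs stood well above the other two. The mean rose from 15.7 ± 1.33 to 52.6 ± 18.3 FPKM (SD, n = 3), a ratio of 3.35, with a log2 fold change of 1.63 (SE 0.23, limma adjusted p = 0.0007875). Without replicate 2 of the A-iSCs the log2 fold change was 1.37 and the gene was still called. In the brain suspensions Vegfa was measured at 24.3, 24.0 and 21.8 FPKM in P56-NPCs and 19.2, 15 and 13.7 FPKM in P0-NPCs. A-iSCs were higher than P56-NPCs (log2 fold change 1.09, SE 0.22, limma adjusted p = 0.004322) and than P0-NPCs (1.62, SE 0.24, limma adjusted p = 0.0005637). P0-NPCs and ASTs overlapped, and their log2 difference of 0.01 had a 95% interval from -0.29 to 0.32. The higher level in P56-NPCs than in ASTs (log2 fold change 0.55, limma adjusted p = 0.0007331) was not called when samples were scaled by total fragments alone (0.22, limma adjusted p = 0.0584).

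The study also designed RT-PCR primers for this gene and for Kdr, shown here because they mark the parts of the transcripts its other assay read.
VEGF forward: tgcacccacgacagaaggaga
VEGF reverse: gcactccagggcttcatcgtt
FLK-1 forward: cttctgcaaaacactcaccattcc
FLK-1 reverse: ggatacctagcgcaaagagacaca
By exact match to GENCODE transcripts, the VEGF pair lay in coding exons 2 and 3 of Vegfa, at chr17:46028368-46028388 and chr17:46025380-46025400 (GRCm38), and gave a product of 202 bases in 9 of its 13 transcripts. The FLK-1 pair lay in coding exon 3 of Kdr, at chr5:75972339-75972362, and across the junction of exons 4 and 5, with a product of 249 bases in 3 of 3 transcripts. Each pair matched 1 gene. By RT-PCR, the study reports that VEGF and FLK-1 were upregulated in spheres over time, with patterns matching its RNA-seq results. In the deposited FPKM, Vegfa was likewise higher in A-iSCs than in ASTs, but Kdr was lower (mean 0.511 against 2.46 FPKM). The reason for this difference was not tested. The FPKM values are per gene, so isoforms of VEGF-A and the soluble form of VEGFR1 were not separated.

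Vegfb, on chromosome 19 from 6982473 to 6987651, was led by P56-NPCs. It was measured at 66.5, 75.7 and 70.2 FPKM there, at 17.8, 26.2 and 19.7 FPKM in ASTs and at 20.9, 20.8 and 22.1 FPKM in P0-NPCs. The P56-NPC samples stood clear of both groups, 3.34 times the mean of ASTs (log2 fold change 1.71, SE 0.14, limma adjusted p = 2.479e-05). In A-iSCs it was measured at 38.2, 34.5 and 19.3 FPKM, so replicate 3 fell within the range of ASTs. The log2 fold change over ASTs was 0.47 with a 95% interval from -0.15 to 1.10 and was not called (limma adjusted p = 0.1724). Replicate 3 decided this call. Without it the log2 fold change over ASTs was 0.77 (limma adjusted p = 0.008937) and over P0-NPCs 0.75 (limma adjusted p = 0.0001457).

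Vegfc and Pgf fell in spheres. Vegfc was measured at 3.12, 3.18 and 2.51 FPKM in ASTs and at 1.09, 0.893 and 0.853 FPKM in A-iSCs (log2 fold change -1.01, SE 0.12, limma adjusted p = 0.0003945). Its levels in P0-NPCs, 2.66 to 2.72 FPKM, lay within those of ASTs, and P56-NPCs were in between at 1.25 to 1.78 FPKM. Only 52 to 56 fragments per A-iSC sample lay behind the Vegfc values. Pgf was measured at 3.23, 3.77 and 2.75 FPKM in ASTs and at 1.26, 1.999 and 1.68 FPKM in A-iSCs (log2 fold change -0.68, SE 0.15, limma adjusted p = 0.006832). ASTs had the highest Pgf level of the 4 groups and P0-NPCs the lowest, at 0.488 to 0.864 FPKM, while A-iSCs and P56-NPCs overlapped (log2 difference 0.19, 95% interval from -0.14 to 0.52). The remaining VEGF ligand, Vegfd, stayed at 0.139 to 0.782 FPKM in all 12 samples and was not tested. Because 1 is added before the log, these fold changes understate those of low genes. The ratio of mean FPKM was 3.10 for Vegfc and 1.97 for Pgf, ASTs over A-iSCs.

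Summed over the 5 ligands, expression was 43.5 ± 4.32 FPKM in ASTs, 86.2 ± 24.2 in A-iSCs, 97.5 ± 4.43 in P56-NPCs and 40.9 ± 2.48 in P0-NPCs (SD, n = 3). The makeup of this sum differed. Vegfa took 51.1 to 66.2% of it in the A-iSC samples, 30.4 to 41.3% in ASTs, 34.9 to 43.9% in P0-NPCs and 22.8 to 25.8% in P56-NPCs, where Vegfb took 70.5 to 73.9%. Vegfb took 42.7 to 54.15% in ASTs and 47.7 to 56.2% in P0-NPCs, more than Vegfa in each sample of these groups. Vegfa was thus the leading ligand by level in A-iSCs, and Vegfb in ASTs, P56-NPCs and P0-NPCs. Vegfc went from 6.76% of the sum in ASTs to 1.15% in A-iSCs, and Pgf from 7.45 to 1.99%. For the Vegfa share of A-iSCs against ASTs, an exact two-sided permutation test gave p = 0.1, the smallest value that 3 samples against 3 allow. Among 54 such tests of shares, 34 reached 0.1 and the smallest adjusted p was 0.1588.

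**Figure D2:**
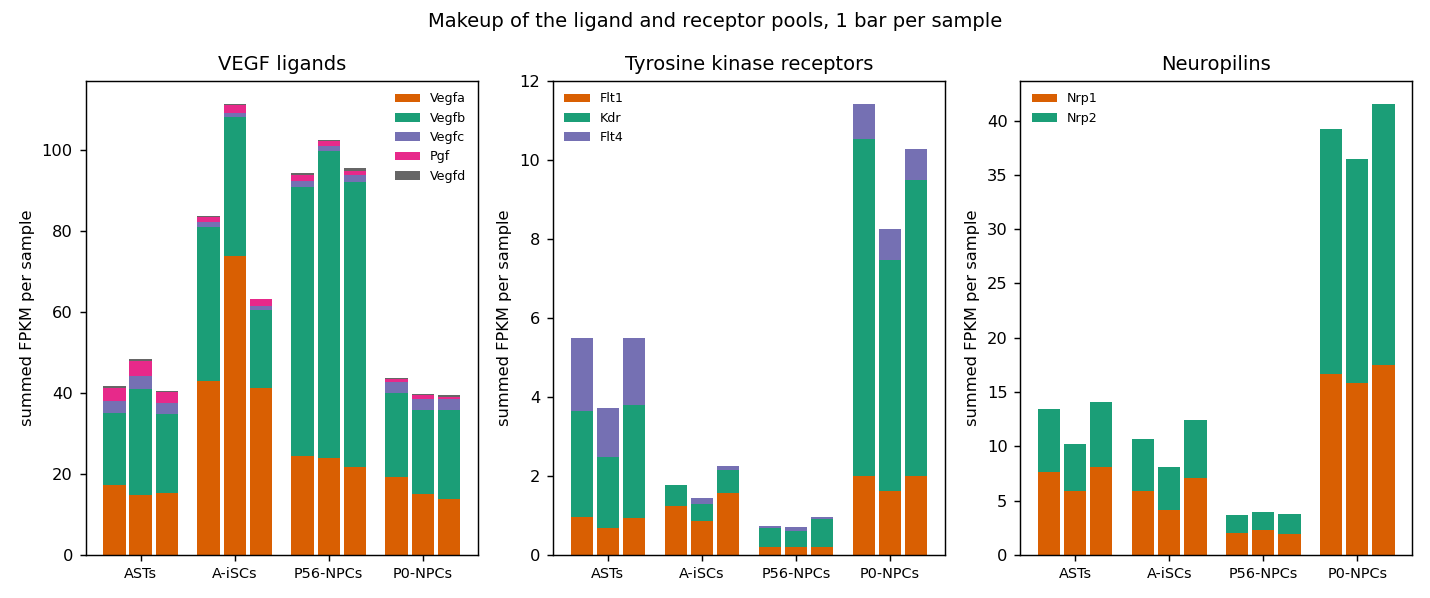
Summed FPKM per sample (1 bar per sample, vertical axes starting at 0) of the 5 VEGF ligands, the 3 tyrosine kinase receptors and the 2 neuropilins, stacked by gene. Vegfa makes up 51.1 to 66.2% of the ligand bars in A-iSCs, and Flt1 59.7 to 69.9% of the receptor bars there, against 16.8 to 18.1% in ASTs.

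Kdr, on chromosome 5 from 75932827 to 75978458, encodes the main signalling receptor and moved opposite to its ligand Vegfa in spheres. Its fall is also opposite to the RT-PCR of the study, which reports FLK-1 as upregulated in spheres. Kdr was measured at 2.69, 1.81 and 2.87 FPKM in ASTs and at 0.516, 0.433 and 0.582 FPKM in A-iSCs. The groups did not overlap, and the mean was 4.82 times higher in ASTs (log2 fold change -1.18 for A-iSCs over ASTs, SE 0.15, limma adjusted p = 0.0005086). P56-NPCs, at 0.472, 0.421 and 0.713 FPKM, overlapped with A-iSCs, and the pair was below the filter and not tested. P0-NPCs had the highest levels at 8.55, 5.87 and 7.52 FPKM, above ASTs (log2 fold change 1.27, SE 0.16, limma adjusted p = 0.0001634) and 14.3 times the mean of A-iSCs (log2 fold change -2.45 for A-iSCs over P0-NPCs, SE 0.14, limma adjusted p = 4.81e-06).

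Flt4 fell furthest among the receptors in spheres. It was measured at 1.84, 1.23 and 1.70 FPKM in ASTs, from 206 to 260 fragments, and at 0.0241, 0.143 and 0.0952 FPKM in A-iSCs, from 4 to 28 fragments. The ratio of means was 18.2 (log2 fold change of A-iSCs over ASTs -1.25, SE 0.13, limma adjusted p = 0.0002288, and -4.37 by limma-voom on the fragments, which adds no 1 FPKM). P56-NPCs were as low, at 0.0560, 0.0984 and 0.0295 FPKM. P0-NPCs, at 0.903, 0.780 and 0.781 FPKM, lay between ASTs and the other groups and below ASTs (log2 fold change -0.50, SE 0.11, limma adjusted p = 0.004009). ASTs were the group with the highest Flt4, in contrast to Kdr, which P0-NPCs led.

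Flt1, whose product binds VEGF-A, VEGF-B and placental growth factor, did not follow Kdr and Flt4. It was measured at 0.954, 0.672 and 0.925 FPKM in ASTs and at 1.24, 0.853 and 1.57 FPKM in A-iSCs. The groups overlapped, and the log2 difference of 0.25 (95% interval from -0.10 to 0.61) was not called (limma adjusted p = 0.1948). P0-NPCs, at 1.99, 1.62 and 1.99 FPKM, were above ASTs (log2 fold change 0.63, SE 0.11, limma adjusted p = 0.000799). They also lay above the A-iSC samples without overlap, but that difference of -0.38 missed the threshold (limma adjusted p = 0.05401) and was called by limma-voom (-0.64, adjusted p = 0.02911). P56-NPCs had 0.205, 0.189 and 0.207 FPKM, the lowest of the groups and below A-iSCs (log2 fold change of A-iSCs over P56-NPCs 0.88, SE 0.14, limma adjusted p = 0.001411).

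The receptor pool therefore shrank and changed its makeup between ASTs and spheres. The sum of the 3 receptors was 3.71 to 5.5 FPKM in ASTs, 1.43 to 2.25 in A-iSCs, 0.708 to 0.949 in P56-NPCs and 8.26 to 11.4 in P0-NPCs. Kdr took 48.7 to 52.3% and Flt4 30.9 to 33.5% of it in ASTs. In A-iSCs, Flt1 took 59.7 to 69.9%, Kdr 25.9 to 30.3% and Flt4 1.35 to 10.01%. Flt1 was the leading receptor by level in A-iSCs, while Kdr led in ASTs, P56-NPCs and P0-NPCs (exact two-sided permutation p = 0.1 for the Flt1 share of A-iSCs against each other group).

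Both neuropilins kept their order over the groups: P0-NPCs, then ASTs and A-iSCs, then P56-NPCs. Nrp1 was measured at 7.58, 5.85 and 8.09 FPKM in ASTs, 5.84, 4.16 and 7.03 in A-iSCs, 1.996, 2.27 and 1.89 in P56-NPCs and 16.6, 15.8 and 17.5 in P0-NPCs. Nrp2 was measured at 5.81, 4.40 and 5.99 FPKM in ASTs, 4.79, 3.95 and 5.34 in A-iSCs, 1.71, 1.69 and 1.85 in P56-NPCs and 22.6, 20.7 and 24.0 in P0-NPCs. ASTs and A-iSCs overlapped in both genes. Their log2 differences were -0.31 for Nrp1 (95% interval from -0.75 to 0.14) and -0.17 for Nrp2 (95% interval from -0.52 to 0.18), and neither was called. The brain suspensions differed in both genes, with log2 fold changes of P56-NPCs over P0-NPCs of -2.53 for Nrp1 (SE 0.07, limma adjusted p = 1.2e-07) and -3.09 for Nrp2 (SE 0.07, limma adjusted p = 5.565e-08). As ratios of mean FPKM, P0-NPCs over P56-NPCs, these were 8.12 and 12.8, beside 13.7 for Kdr, 13.4 for Flt4 and 9.30 for Flt1. Nrp1 exceeded Nrp2 in each sample of ASTs, A-iSCs and P56-NPCs, with 50.6 to 57.5% of their sum, and fell short of it in P0-NPCs, with 42.2 to 43.4%. Neuropilins outweighed the kinase receptors in each group, at 12.6 against 4.90 FPKM in ASTs, 10.4 against 1.82 in A-iSCs, 3.80 against 0.797 in P56-NPCs and 39.1 against 9.998 in P0-NPCs. Of the genes that overlap Nrp2, a lncRNA on the opposite strand had a fragment count of at most 2.17% of that of Nrp2, and the gene Gm37121 on the same strand at most 0.833%.

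**Figure D3:**
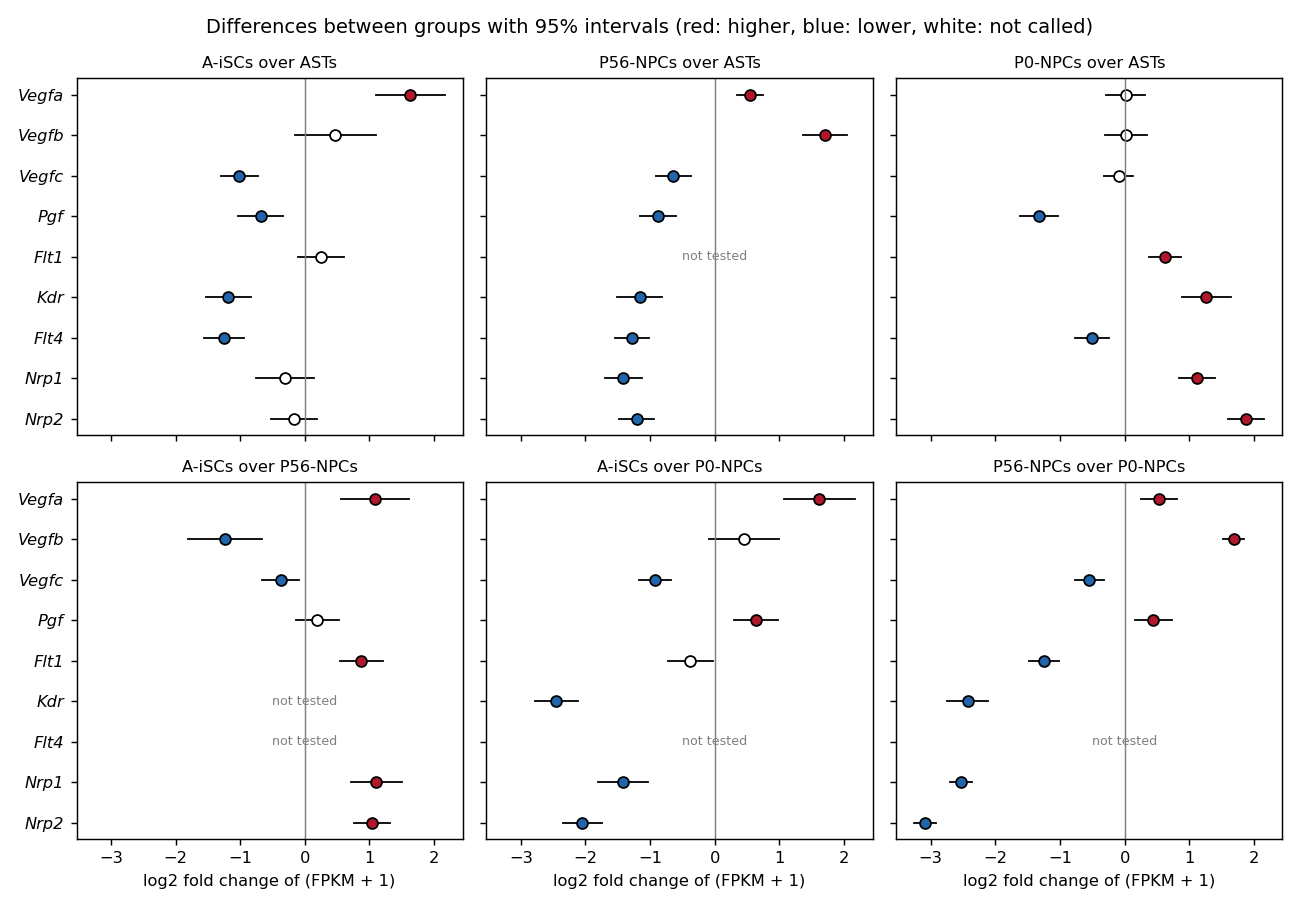
Log2 fold change of (FPKM + 1) with its 95% interval for the 9 genes in the 6 comparisons, red where called higher in the first group, blue where called lower, white where not called. In A-iSCs over ASTs, Vegfa lies at 1.63 and Kdr and Flt4 at -1.18 and -1.25, while the intervals of Vegfb, Flt1, Nrp1 and Nrp2 cross 0.

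Kdr, Flt1 and Flt4 are expressed above all by endothelial cells, and markers of these cells were read beside them. In P0-NPCs all 16 endothelial markers other than Flt1 and Kdr reached a mean of 1 FPKM, with Cldn5 at 50.8 and Pecam1 at 4.37 FPKM. In ASTs, where Kdr had a mean of 2.46 and Flt4 of 1.59 FPKM, Cldn5 and Sox17 were listed at 0 in all 3 samples, and Pecam1, Tie1, Emcn, Erg and Vwf had means of 0.0541, 0.01003, 0.0213, 0.0399 and 0.0356 FPKM. Other listed genes were present in ASTs, with Cdh5 (VE-cadherin) at 2.28, Esam at 2.21, Eng at 4.06 and Itm2a at 9.53 FPKM. The 16 markers summed to 81.1 to 84.97 FPKM in ASTs, of which the lipid transporter Mfsd2a made up 61.6 on average, to 14.7 to 19.8 in A-iSCs, to 56.3 to 59.7 in P56-NPCs and to 156 to 167 in P0-NPCs. Of the 18 listed endothelial genes, Flt1 and Kdr included, 9 could be tested between A-iSCs and ASTs, of which 7 were lower in A-iSCs and 2 were not called, where 29.6% of all genes tested were lower. Cdh5 and Esam were among the lower ones, at 0.156 and 0.116 FPKM. With Slco1a4 and Kdr, they passed the filter through ASTs alone, which favours a lower call. The count is therefore no result about endothelial cells. Eng, Itm2a and Mfsd2a, above the filter in both groups, had lower means in A-iSCs, at 1.11, 2.44 and 10.99 FPKM. Pecam1, Erg and Vwf, all below the filter and not tested, went the other way without overlap, to means of 0.205, 0.272 and 0.267 FPKM. Markers of mural cells, which wrap small vessels, were also high in P0-NPCs, where the 9 genes summed to 127.9 to 143 FPKM, against 12.2 to 22.07 FPKM over the samples of the other groups. Against ASTs, 6 of 9 mural markers were higher in P0-NPCs and 1 lower, and 6 of 8 fibroblast markers were higher and 2 lower, where 38.1% of all genes tested were higher and 40.9% lower. The fibroblast sum was lower in P0-NPCs (139 to 153.6 FPKM) than in ASTs (362 to 537 FPKM). The part of endothelial, mural and fibroblast cells in the difference between P0-NPCs and the other groups was not tested.

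**Figure D4:**
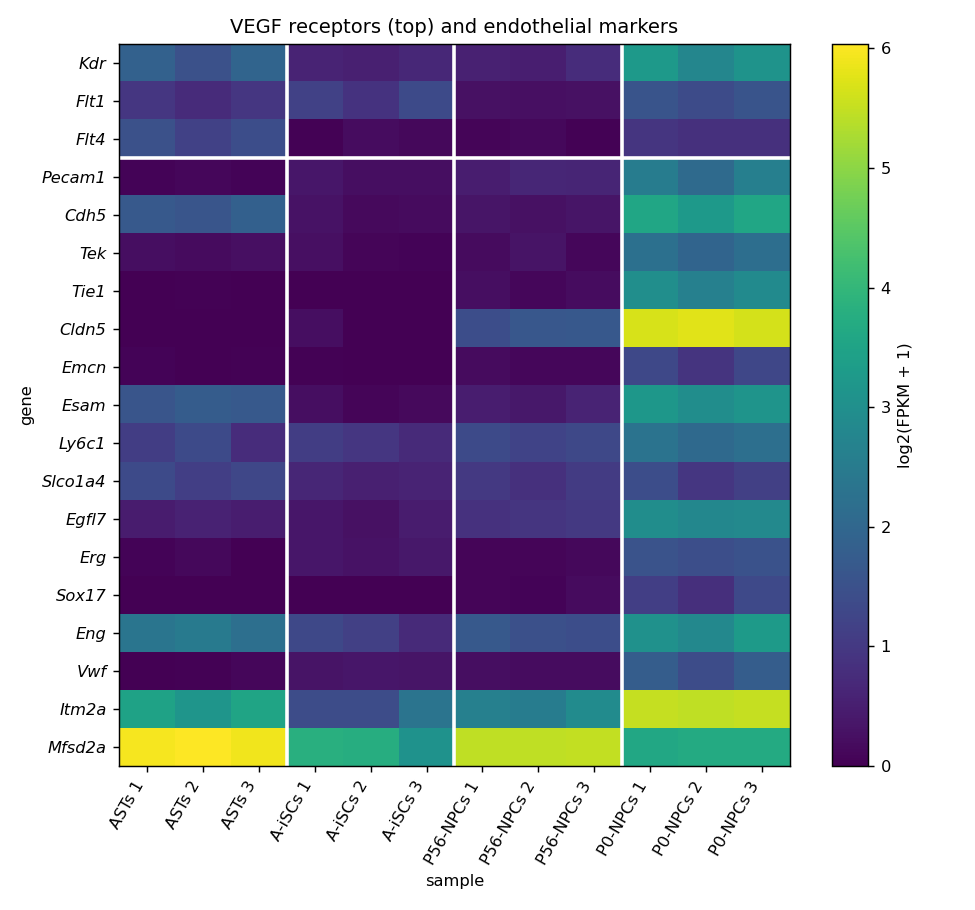
Level as log2(FPKM + 1), by colour, of the 3 VEGF tyrosine kinase receptors (top rows) and 16 endothelial markers (lower rows) in each of the 12 samples (columns). In the AST columns Kdr and Flt4 have means of 2.46 and 1.59 FPKM while Cldn5 and Sox17 are at 0, and in the P0-NPC columns all 16 markers have a mean of at least 1 FPKM.

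Genes of other cell type lists also differed between ASTs and A-iSCs, where 25.2% of all genes tested were higher in A-iSCs and 29.6% lower. Of 10 microglia markers, 10 were higher in A-iSCs, and their sum went from 208 to 239 FPKM in ASTs to 2065 to 2832 in A-iSCs. Of 10 astrocyte markers, 9 were higher. Oligodendrocyte markers were higher in 4 of 4 tested and ependymal markers in 5 of 6. Some lists were called in both directions, with 3 higher and 4 lower of 9 neural stem or progenitor markers tested, 2 higher and 1 lower of 5 neuron markers, and 1 higher and 2 lower of 4 mural markers. Of 8 fibroblast markers, 6 were tested, 5 were lower and Pdgfra was higher (0.373 to 5.502 FPKM), with a summed level of 362 to 537 FPKM in ASTs and 70.0 to 93.0 in A-iSCs, and the collagen gene Col1a1 went from 158 to 2.98 FPKM. The part of these cell types in the changes of Vegfa, Vegfc, Pgf, Kdr and Flt4 was not tested.

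Genes around the VEGF system were read from lists in the comparison of A-iSCs with ASTs, where the median log2 fold change of all genes tested was -0.06. Among 52 genes of signal transduction below VEGF receptors, 48 were tested, 12 were higher and 15 lower, with a median of 0.01. The share called was 56.2%, near the 54.8% of all genes tested, so the count is no result about this list. The highest were Pik3cd, a catalytic PI3K subunit known from immune cells (1.98, limma adjusted p = 1.548e-05), and Plcg2, a phospholipase C known from the same cells (1.49, limma adjusted p = 6.743e-05). The lowest were the sphingosine kinase Sphk1 (-2.29, limma adjusted p = 1.071e-05) and Hras (-1.84, limma adjusted p = 2.375e-05).

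Among the neuropilin partners, 11 class 3 semaphorins, plexins and adaptors were tested, of which 9 were lower and 2 higher in A-iSCs, with a median log2 fold change of -0.92. Over all genes tested, 29.6% were lower and 25.2% higher, and the direction of the list as such was not tested. Nrp1 and Nrp2 themselves were not called. Sema3f went from 19.8 to 1.43 FPKM (-3.09, limma adjusted p = 1.013e-05) and Sema3c from 16.0 to 3.07 FPKM (-2.06, limma adjusted p = 1.013e-05). Both encode secreted ligands that bind neuropilins. The receptors Plxna3 (0.95, limma adjusted p = 0.001171) and Plxna4 (0.45, limma adjusted p = 0.02827) were higher.

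Of the regulators by which oxygen sets Vegfa transcription, 9 were tested, 2 were higher and 2 lower, with a median of -0.03. That is 44.4% called, against 54.8% of all genes tested. Egln3, a prolyl hydroxylase, went from 7.47 to 26.2 FPKM (log2 fold change 1.65, limma adjusted p = 0.0003388), and Vhl, which marks HIF for degradation, from 10.6 to 19.3 FPKM (0.78, limma adjusted p = 0.007873). Epas1 (HIF-2 alpha) fell by 1.32 and Egln1 by 0.87 on the log2 scale (limma adjusted p = 0.0003982 and 0.001556), and Hif1a was not called (-0.35, limma adjusted p = 0.2055). Of 17 hypoxia target genes tested, 6 were higher, 6 lower and 5 not called, with a median of 0.02. These are 70.6% called, where 25.2% of all genes tested were higher and 29.6% lower. Bnip3 (1.91, limma adjusted p = 7.147e-05) and Pdk1 (1.51, limma adjusted p = 0.0007073) were the highest, and Adm (-2.25, limma adjusted p = 4.064e-05) and Ndrg1 (-1.56, limma adjusted p = 1.879e-05) the lowest. Against P0-NPCs, 13 of 17 hypoxia targets were higher in A-iSCs and 1 lower, where 31.5% of all genes tested were higher and 33.6% lower. Against P56-NPCs, 11 were higher and 4 lower in A-iSCs (30.1 and 30.9% of all genes). P0-NPCs were also low beside the other groups. Of 16 targets, 4 were higher and 11 lower in P0-NPCs than in ASTs (38.1 and 40.9% of all genes). Of 15, 10 were higher and 3 lower in P56-NPCs than in P0-NPCs (39.7 and 39% of all genes).

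Of 13 tested genes that restrain VEGF signalling or compete with it, 5 were higher and 7 lower in A-iSCs, with a median of -0.52, where 25.2% of all genes tested were higher and 29.6% lower. Thbs1, the anti-angiogenic thrombospondin-1, went from 723 to 18.9 FPKM (-5.19, limma adjusted p = 4.061e-06), and Angpt2, an angiopoietin, from 10.02 to 1.08 FPKM (-2.40, limma adjusted p = 1.052e-05). Cd36, a thrombospondin receptor, was higher (2.06, limma adjusted p = 2.544e-05), as was Vash1, an inhibitor of angiogenesis (1.73, limma adjusted p = 0.00356). Of the listed genes for ligand processing, Furin and Pcsk7 were tested and neither was called.

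**Figure D5:**
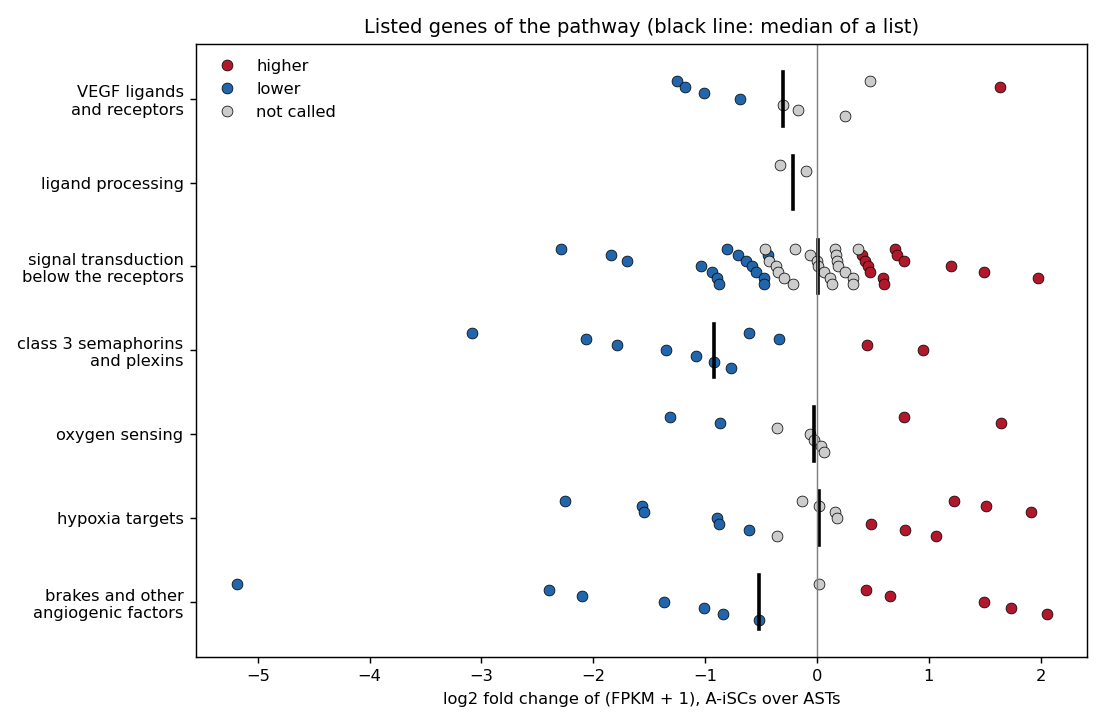
Log2 fold change of (FPKM + 1) of A-iSCs over ASTs (horizontal axis) for each tested gene of 7 lists, red where called higher, blue where called lower, grey where not called, with the median of each list as a black line. The semaphorin and plexin list has a median of -0.92 with 9 of 11 genes lower, while of the 17 hypoxia targets 6 are called higher and 6 lower.

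For each of the 9 genes, the genes with the most similar pattern over the 12 samples were found by the root mean square difference of centred log2(FPKM + 1) among 16568 genes, as a description. The 3 nearest to Vegfa were Aspg (0.19), AI467606 (0.22) and Fancc (0.23), and those nearest to Vegfb were Upp2 (0.19), D730003I15Rik (0.20) and Rgs14 (0.20). Nearest to Vegfc was Ptgis, the prostacyclin synthase (0.09). Near Pgf lay Txndc15 (0.12) and Aifm1 (0.13), and nearest to Flt1 were Zfp655 (0.09), Rnf2 (0.10) and Prune1 (0.12). Kdr lay nearest to Foxf2, a forkhead factor known from brain pericytes (0.15), and near Cdh4 (0.22). Flt4 lay nearest to Kntc1, a kinetochore protein (0.07), Esco2, a cohesin acetyltransferase (0.08), and the transcription factor Mybl2 (0.11). Nrp1 lay nearest to Igsf3 (0.17), the neuropilin partner Plxna2 (0.17) and Dok4 (0.21), and Nrp2 to Cxadr (0.19), Socs2 (0.22) and Igsf3 (0.24). The 12 samples share 4 group means, so such likeness rests on few independent points.

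Sequences just upstream of the annotated starts are given for Vegfa, the ligand that rose in A-iSCs, for Kdr, the main signalling receptor and 1 of the 2 that fell, and for Flt1, which led the receptor pool there. They are RefSeq promoter windows of GRCm38.p6, written 5′ to 3′ on the strand of the gene, with capitals marking the GC box GGGCGG, the TATA box TATAAA and the CAAT box CCAAT on either strand.
Vegfa chr17:46032378-46032627: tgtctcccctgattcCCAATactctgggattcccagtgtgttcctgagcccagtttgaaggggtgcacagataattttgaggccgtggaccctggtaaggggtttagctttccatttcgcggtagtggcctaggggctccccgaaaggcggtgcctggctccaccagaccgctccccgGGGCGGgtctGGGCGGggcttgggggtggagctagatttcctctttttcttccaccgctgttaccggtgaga
Kdr chr5:75978459-75978705: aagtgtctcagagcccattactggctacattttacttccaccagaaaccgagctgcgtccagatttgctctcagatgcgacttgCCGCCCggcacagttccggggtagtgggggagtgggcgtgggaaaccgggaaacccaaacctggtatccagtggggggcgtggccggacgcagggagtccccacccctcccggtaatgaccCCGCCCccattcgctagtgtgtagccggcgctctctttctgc
Flt1 chr5:147726012-147726261: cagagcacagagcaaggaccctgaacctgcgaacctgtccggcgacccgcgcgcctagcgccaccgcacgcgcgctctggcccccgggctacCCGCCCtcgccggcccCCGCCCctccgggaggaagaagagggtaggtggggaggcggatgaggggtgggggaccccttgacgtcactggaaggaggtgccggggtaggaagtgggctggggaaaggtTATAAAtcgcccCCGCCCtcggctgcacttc
The Vegfa window held 2 GC boxes and 1 CAAT box, the Kdr window 2 GC boxes, and the Flt1 window 3 GC boxes and 1 TATA box. RefSeq gave 11 windows for the 9 genes, each of 250 bases except that of Kdr, which was shortened to 247 where it overlapped the first exon. The windows of Nrp2, Flt4 and Pgf and of an internal Vegfa start also overlapped exons of their gene and were not shortened. Of all 11 windows, 10 held a GC box, 1 a TATA box and 2 a CAAT box. Among 32851 RefSeq windows of 250 bases, these motifs were in 32.7%, 12.4% and 33.8%. The hypoxia response core ACGTG was in 1 of the 11 windows, an internal Vegfa start, and in 16.6% of all windows. Such matches are descriptions of letters within these windows and were not tied to the levels.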

How the data were processed

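RNA of 12 samples, 3 in each of 4 groups, had been sequenced as paired-end libraries (NEBNext Ultra, Illumina HiSeq). The authors deposited FPKM per gene with gene lengths. The submitters' notes name Bowtie 0.12.2 and mm8, but 54899 of 55154 shared gene identifiers have the positions of GENCODE M21, so coordinates are GRCm38. The counter and the strandedness are not given in the sources used here. Multiplied by gene length, the values of a sample were whole multiples of 1 step (100% of values within 0.01), so fragments and library sizes were recovered. The library sizes were 0.744 to 1.218 times the fragments, hence already scaled by the authors.

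limma 3.58.1 (R 4.3.3; lmFit, eBayes with trend) was run on log2(FPKM + 1) for each pair of groups, over genes with a mean of at least 1 FPKM in either group, with Benjamini-Hochberg adjustment. DESeq2, named in the study's methods, was not run here, and limma-voom served for the recovered fragments. The script was tested on simulated data. Shares were compared by exact permutation. Alternatives were a pseudocount of 0.1, no filter, scaling by total fragments or upper quartile, all 4 groups in the model, the replicate block, limma-voom and leaving out each sample. Named were the 9 genes, Vegfd, the 2 highest and 2 lowest called genes of each list, the 3 genes most like each and cell type markers. A few genes that this rule names are not reported here. Members and lists were chosen with earlier results of these data known. Python 3.11.15 (pandas 2.3.3, scipy 1.17.1, matplotlib 3.10.9) was used for the rest.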

Additional observations from a re-analysis of the deposited data

How the results depend on the processing

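Of 637 alternative values for the 49 tests of single VEGF genes, 610 kept their direction and side of the threshold, 8 lost the call, 8 gained it and 11 changed sign, and 37 tests never changed. Scaling by total fragments moved the median log2 fold change of all genes most, from -0.06 to 0.13 for A-iSCs over ASTs (4563 higher and 2989 lower, against 3550 and 4165 and against 3026 and 4954 by upper quartile, median -0.17), from -0.03 to -0.34 for P56-NPCs over ASTs (4569 and 7559, against 5924 and 6032), from -0.07 to 0.21 for P0-NPCs over ASTs (7106 and 4860, against 5713 and 6146), from 0.03 to 0.49 for A-iSCs over P56-NPCs (8329 and 2857, against 4532 and 4643) and from 0.01 to -0.53 for P56-NPCs over P0-NPCs (3438 and 9428, against 6115 and 6011). Under it, 1 gene was higher in P56-NPCs than in ASTs (Vegfb, with Vegfa at 0.22), 1 higher in P56-NPCs than in P0-NPCs (Vegfb, with Vegfa at -0.069 and Pgf at 0.13), 1 lower in A-iSCs than in P56-NPCs (Vegfb, with Vegfc at -0.07), Nrp2 changed to 0.012 for A-iSCs over ASTs and Vegfc to 0.13 for P0-NPCs over ASTs, while Pgf was called higher in A-iSCs than in P56-NPCs (0.51) and Flt1 lower in A-iSCs than in P0-NPCs (-0.44). These shifts have the direction of the shift in the median of all genes.

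The call of Vegfc between A-iSCs and P56-NPCs (-0.37, adjusted p = 0.03044) was also lost without the filter (limma adjusted p = 0.07145), leaving 1 gene lower there. Leaving out single samples gave 1 to 2 genes lower in that comparison (Vegfc from -0.46 to -0.30, lost without replicate 2 of the A-iSCs and replicates 1 or 3 of the P56-NPCs) and 1 to 2 genes higher in A-iSCs than in ASTs (Vegfb from 0.29 to 0.77). For P0-NPCs over ASTs, Vegfa ranged from -0.12 to 0.11 and Vegfb from -0.093 to 0.18 when single samples were left out, and stood at -0.087 and -0.083 under upper-quartile scaling, none called. Flt1 between A-iSCs and P0-NPCs was also called by upper-quartile scaling (-0.39), with all 4 groups in the model (adjusted p = 0.01577) and without replicate 3 of the A-iSCs (-0.49), but not without replicate 2 (-0.25). With fragments not divided by gene length, the Kdr share of the receptors was 25.8 points lower (-25.8) in A-iSCs than in ASTs, against -21.6. The causes were not tested.

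Samples of different groups shared replicate numbers, but same-numbered samples did not deviate together in every pair (correlations of -0.41, 0.35 and 0.45 for A-iSCs and ASTs). The replicate block changed 1 of 49 calls, Vegfc between A-iSCs and P56-NPCs (-0.37, adjusted p = 0.06374), leaving 1 gene lower there. Depth limits the genes with few fragments, above all Flt4, with 4 to 28 fragments per sample in A-iSCs and 4 to 13 in P56-NPCs.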
